A study of Mus musculus with 6 samples.

Results

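The genes described here encode the enzymes that make and use glutathione, the thioredoxin and peroxiredoxin system, the superoxide dismutases, and the NRF2 pathway that drives many of them. The 42 members were fixed by gene symbol. All 42 have a row in the deposited table of 23997 symbols, and all 42 passed the filter on low values, which kept the 12818 genes averaging 0.5 FPKM or more. They fall into 7 groups by role. The groups are glutathione synthesis and recycling (4 genes), glutathione peroxidases (5), glutathione transferases (15), thioredoxins and their reductases (4), peroxiredoxins with sulfiredoxin (7), superoxide dismutases (3), and NRF2 with its inhibitor KEAP1 and 2 stress enzymes (4).

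Poly(A) RNA of mouse inguinal white adipose tissue (iWAT), a subcutaneous fat pad, was sequenced in 3 libraries of Atf4WT mice, which carried the floxed Atf4 gene without Cre, and in 3 libraries of Atf4AKO mice, which carried the floxed gene with Cre under the adiponectin promoter. Mice of both genotypes lived at 22 °C and then spent 12 h at 5 °C, so the data give the difference between genotypes in the cold and no response to cold. Age and sex are not given, nor whether a library is 1 animal or a pool, and the p-values below measure the spread between libraries. Cre is present in every Atf4AKO library and in no Atf4WT library, so an effect of Cre and an effect of losing Atf4 cannot be told apart.

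Glutathione is a tripeptide whose thiol group reduces peroxides through glutathione peroxidases and is joined to reactive compounds by glutathione transferases. Thioredoxins pass electrons from NADPH to peroxiredoxins, the other large family of peroxide-reducing enzymes, and superoxide dismutases make the peroxide from superoxide. NRF2, encoded by Nfe2l2, is held at a low level by KEAP1 and, when released, binds antioxidant response elements in many of these genes. ATF4 is best known here for genes that supply cysteine and for Chac1, which degrades glutathione. Adipocytes burning fat in the cold produce oxidants in their mitochondria, which is why this network is of interest in browning fat.

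No member differed between genotypes past the threshold. Limma, on log2(FPKM + 1), called 0 of 42 members at a Benjamini-Hochberg adjusted p of 0.05 over all 12818 genes, where 2 genes in all, or 0.0156%, were called, and the smallest adjusted p of a member was 0.50. At an unadjusted p under 0.05 there were 2 members higher in Atf4AKO and 0 lower, against 5.04% of all tested genes higher and 4.91% lower. In 3 members the libraries of the groups did not overlap: Gstm2 and Gstt1 were higher in Atf4AKO and Gsto1 was lower. That is 7.14% of members, against 16.5% of all tested genes (8.21% higher and 8.34% lower). Of the 42 log2 differences 29 were positive and the median was 0.12, beside 50.6% positive and a median of 0.0046 over all tested genes. With the libraries rescaled to equal sums of FPKM, which moved the median of all genes to -0.12, 19 of 42 were positive. Of the 7 medians by role, that of the peroxiredoxins (0.12) turned sign under this rescaling (-0.026), and the other 6 did not.

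The intervals set limits to what could have been missed. In 35 of 42 members the limma 95% interval of the log2 difference excluded a 2-fold difference of FPKM + 1 in either direction. In 16 it excluded a 1.5-fold difference of FPKM + 1. On this scale it reached a 2-fold higher level in Atf4AKO for Gpx8, Gsta4, Gstt1, Mgst3 and Hmox1, and a 2-fold lower level for Gsta3 and Gstt2. The same bound stands for a larger fold difference of FPKM itself where FPKM is low. For Nqo1, with a mean of 4.04 FPKM and a lower bound of -0.83, a 2-fold lower FPKM was thus not excluded. These intervals are not adjusted for the number of genes. For a single gene, the exact permutation test (two-sided) reaches p = 0.1 at best with 3 libraries against 3. Below, 3 values for a genotype are its libraries 1, 2 and 3 in order, and a pair of values with ± gives the mean and SD over the 3 libraries of each genotype, Atf4WT before Atf4AKO.

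**Figure D1:**
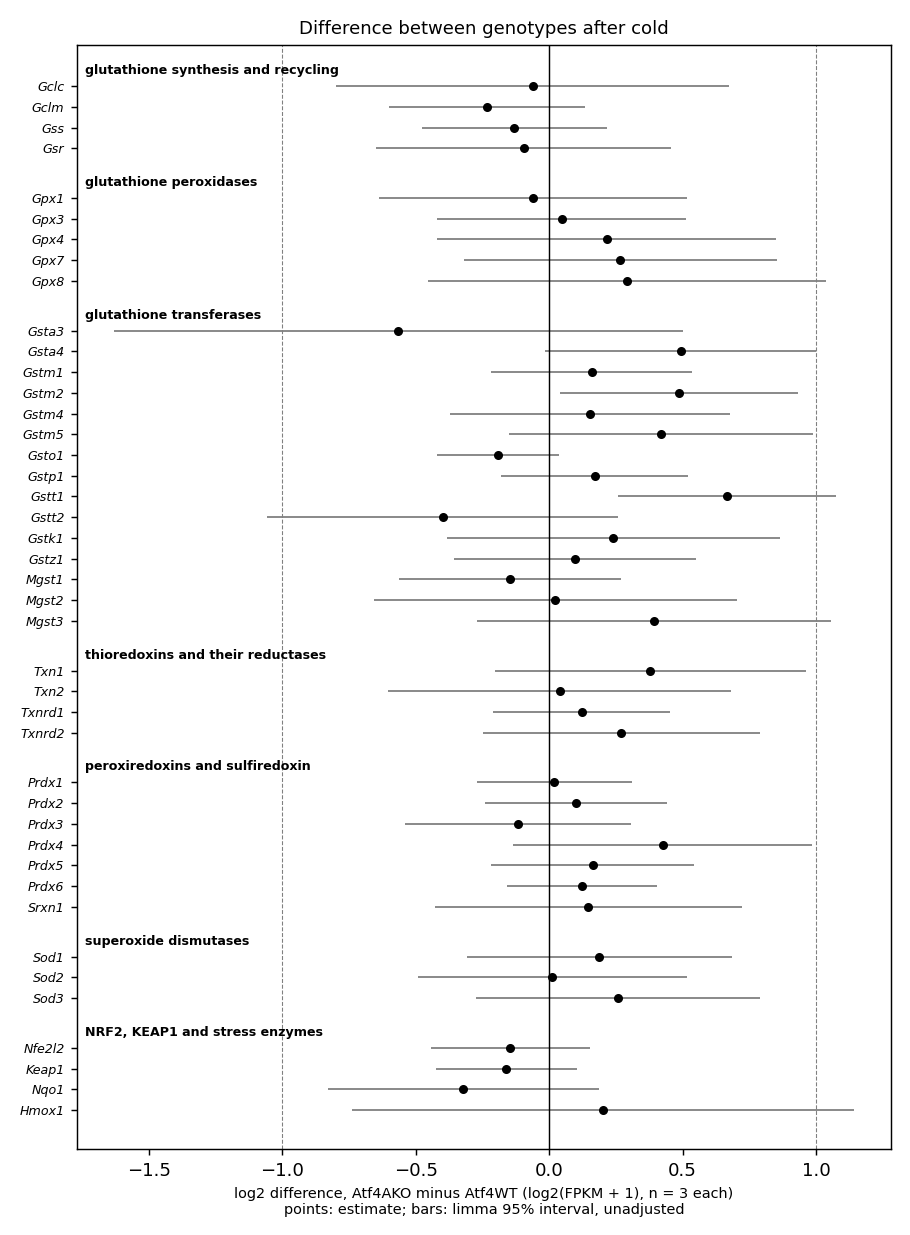
Difference between genotypes for each of the 42 genes, on the log2(FPKM + 1) scale, as Atf4AKO minus Atf4WT, with limma 95% intervals (n = 3 libraries each) and dashed lines at a 2-fold difference of FPKM + 1. The intervals of Gstm2 and Gstt1 lie above 0, and the other 40 include it.

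The targeted gene was lower in every library labelled Atf4AKO, yet it was not called either. Atf4, on chromosome 15 from 80255184 to 80257541 (GRCm38, plus strand), stood at 257.6, 323 and 317 FPKM across Atf4WT 1 to 3, and at 152.1, 140.2 and 114 FPKM across Atf4AKO 1 to 3. Its log2 difference was -1.14 (SE 0.16, limma adjusted p = 0.490), so a difference of this size in a tested gene could miss the threshold in this design. Fat was the main tissue in all 6 libraries, with Adipoq between 1672 and 3336 FPKM, but other tissues were present unevenly. The summed FPKM of 20 skeletal muscle markers was 3646 and 10248 in Atf4AKO 1 and 2 and 1071 in Atf4WT 2, against 22.2 to 33.0 in the other libraries. The sum of 18 mammary and skin epithelial markers was 1116 in Atf4WT 1, between 221 and 224 in Atf4WT 2 and Atf4AKO 3, and at most 10.8 in the rest. Krt8, a defining epithelial keratin, was listed at 0 in Atf4WT 3, Atf4AKO 1 and Atf4AKO 2. The sum of 17 macrophage markers was 380.0 to 937 in Atf4WT and 755 to 4135 in Atf4AKO, with the highest value in Atf4AKO 1. In such bulk tissue, fewer cells of a type and less RNA per cell cannot be told apart.

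The antioxidant genes together made up between 1.85% of all FPKM in Atf4AKO 1 and 2.35% in Atf4WT 1. Single members spanned a wide range. Gpx1 was the seventh most abundant of 23997 symbols by mean FPKM (rank 7), Mgst1 was at rank 30 and Sod1 at rank 31, whereas Gstm4 and Nqo1 had means of 3.08 and 4.04 FPKM. FPKM is per transcript length, so these levels can be set side by side.

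**Figure D2:**
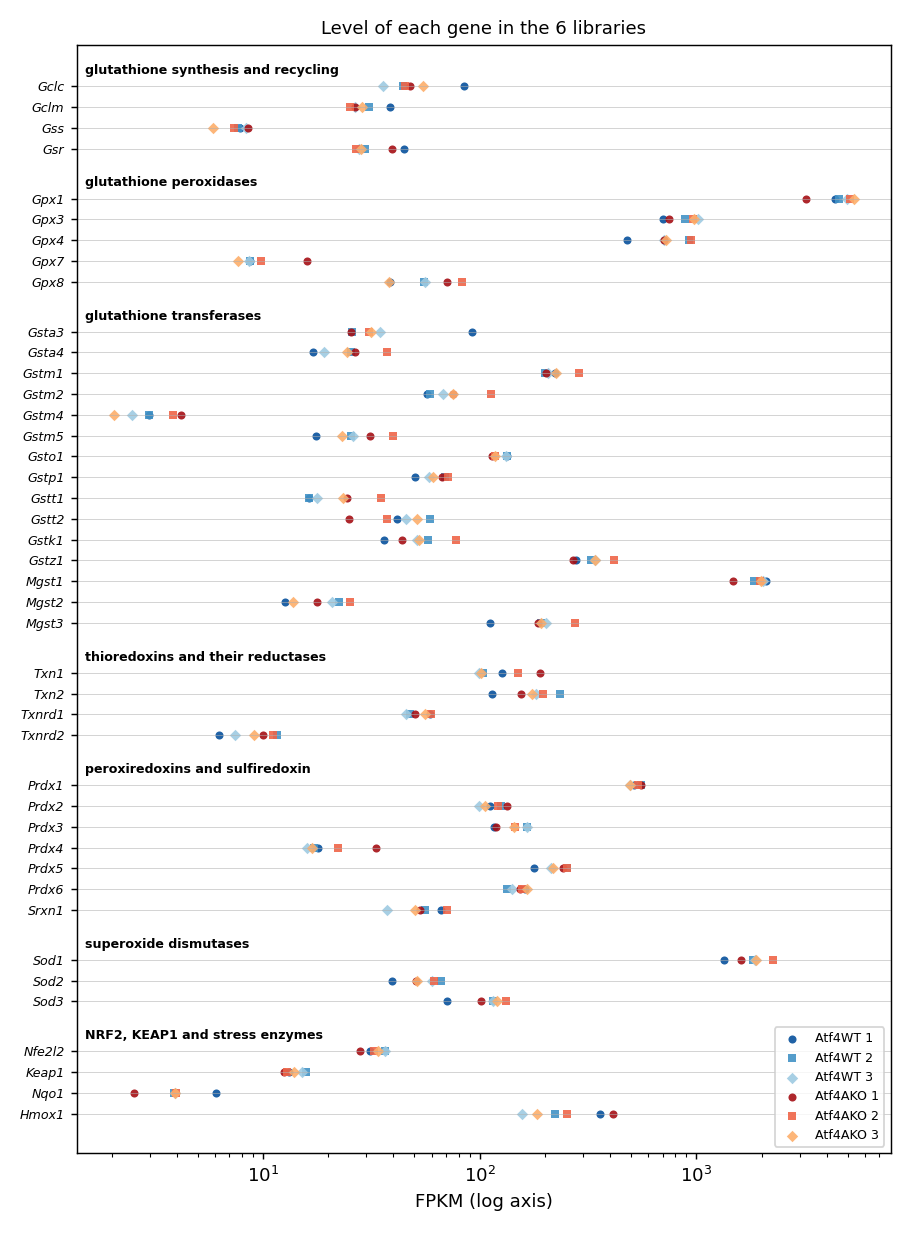
FPKM (log axis) of each of the 42 genes in the 6 libraries, ordered by role, with Atf4WT in blue and Atf4AKO in red to orange. Within each role 1 or 2 genes dominate, such as Gpx1 among peroxidases and Mgst1 among transferases, and the colours intermingle in nearly every row.

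Glutathione synthesis and recycling had 4 of 4 log2 differences below 0, with a median of -0.11, and none passed. Gclc, the catalytic subunit of glutamate-cysteine ligase, the rate-limiting enzyme of glutathione synthesis, measured 84.4, 44.4 and 35.9 FPKM in the Atf4WT libraries, and 47.9, 45.3 and 54.6 FPKM in the Atf4AKO libraries. Atf4WT 1 was far above the other 5 libraries. Without it every Atf4AKO value lay above the remaining Atf4WT values, and 29.7% of all tested genes then had groups that did not overlap. The log2 difference of Gclc was -0.06 (SE 0.31, limma adjusted p = 0.937), and it was 0.29 without Atf4WT 1.

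Gsr, the reductase that regenerates glutathione with NADPH, had 44.8, 29.5 and 27.6 FPKM in Atf4WT libraries 1 to 3, compared with 39.2, 26.8 and 28.3 FPKM in Atf4AKO 1 to 3. Library 1 of each genotype was the highest of its group, and the log2 difference was -0.10 (SE 0.23, limma adjusted p = 0.864). Gclm, the modifier subunit of the ligase, was 38.4, 30.8 and 26.7 FPKM in the 3 Atf4WT libraries, beside 26.5, 25.2 and 28.8 FPKM in the 3 Atf4AKO libraries, again with Atf4WT 1 at the top. Gss, which adds glycine in the second step of synthesis, was 7.95 ± 0.348 and 7.24 ± 1.34 FPKM. Without Atf4WT 1 the median of these 4 genes was 0.011, so its sign rested on that library.

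Glutathione peroxidases were led by Gpx1, the abundant cytosolic selenoenzyme, which held 67.4% to 78.1% of the summed peroxidase FPKM in each library. It stood at 4380.5, 4532 and 4982 FPKM across Atf4WT 1 to 3, and at 3193, 5140.0 and 5313 FPKM across Atf4AKO 1 to 3. Atf4AKO 1 was the lowest and Atf4AKO 3 the highest library, with the 3 Atf4WT libraries between them. The log2 difference was -0.06 (SE 0.24, limma adjusted p = 0.922). Its sign rested on Atf4AKO 1, since it was 0.18 without that library, and it was 0.32 with the macrophage level as a covariate.

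Gpx3, the secreted peroxidase of plasma and a known adipose product, measured 703, 888 and 1016 FPKM in the Atf4WT libraries, and 747, 964 and 971 FPKM in the Atf4AKO libraries, almost fully interleaved. Gpx4, which reduces lipid peroxides in membranes and protects cells from ferroptosis, was 702 ± 221 and 794 ± 134 FPKM. The peroxidases of the endoplasmic reticulum had the widest spread in Atf4AKO. Gpx7 was 8.67 ± 0.0905 and 11.1 ± 4.36 FPKM, with 16.0 FPKM in Atf4AKO 1, and Gpx8 was 50.005 ± 9.99 and 63.8 ± 23.1 FPKM. The median log2 difference of the 5 peroxidases was 0.22, but it was -0.035 without Atf4WT 1. Of the 50-base words of Gpx4 transcripts 34.7% also are found in its pseudogene Gpx4-ps2, so how shared reads were assigned bears on its level.

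Glutathione transferases held the 3 members whose groups did not overlap, with 11 of 15 log2 differences above 0 and a median of 0.16. Gstt1, a theta-class transferase, had 16.2, 16.4 and 17.8 FPKM in Atf4WT libraries 1 to 3, compared with 24.5, 35.2 and 23.4 FPKM in Atf4AKO 1 to 3. All 3 Atf4WT libraries lay within 2 FPKM of each other and below every Atf4AKO library. The mean was 1.65 times as high in Atf4AKO, with a log2 difference of 0.67 (SE 0.17, 95% interval 0.26 to 1.07). This was the largest log2 difference among the members, and it did not pass (limma adjusted p = 0.50; exact permutation p = 0.1, the smallest this design allows). Over the alternatives tried its log2 difference ran from 0.44 to 0.77, and its adjusted p was 0.136 at the smallest. Fitted with the muscle marker level as a covariate it was 0.56 (limma adjusted p = 1.00).

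Gstt2, of the same class, stands beside Gstt1 on chromosome 10, and with all 6 libraries the log2 differences of the pair had opposite signs. Gstt1 lies from 75783813 to 75798584 and Gstt2 from 75831114 to 75837424, both on the minus strand and 32.5 kb apart (GRCm38). Gstt2 was 41.3, 58.7 and 45.8 FPKM in the 3 Atf4WT libraries, beside 24.8, 37.2 and 51.3 FPKM in the 3 Atf4AKO libraries, so Atf4AKO 3 lay inside the Atf4WT range while the other Atf4AKO libraries lay below it. Its log2 difference was -0.40 (SE 0.27, limma adjusted p = 0.570). It was -0.14 without Atf4AKO 1, and it was positive, 0.09 and 0.23, with the macrophage level as a covariate and without Atf4AKO 1, Atf4AKO 2 and Atf4WT 2.

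The ratio of Gstt2 to Gstt1 within a library does not depend on how libraries are scaled. It was 2.54, 3.58 and 2.57 in Atf4WT and 1.01, 1.06 and 2.20 in Atf4AKO. The groups did not overlap (2.90 ± 0.594 and 1.42 ± 0.671, n = 3 each), but the ratio was chosen after the values were seen and is given without a test. The low ratios were those of Atf4AKO 1 and 2, the libraries with the largest sums of muscle markers and of macrophage markers (4135 and 1507 FPKM), while Atf4AKO 3, at 755 FPKM of macrophage markers, was close to the Atf4WT range. Atf4AKO 1 and 2 also had the largest sums of fibroblast and of erythroid markers. The part of any of these cells in the ratio was not tested.

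Gstm2 was the other transferase above the Atf4WT range in every Atf4AKO library. It stood at 56.9, 58.7 and 67.9 FPKM across Atf4WT 1 to 3, and at 75.5, 112.2 and 74.9 FPKM across Atf4AKO 1 to 3, 1.43 times as high on average. The log2 difference was 0.49 (SE 0.19, limma adjusted p = 0.50), and without Atf4AKO 2, the library with 112.2 FPKM and the most muscle RNA, it was 0.30 (limma adjusted p = 0.887). Gstm5, Gstm2, Gstm1 and Gstm4 stand in this order in a mu-class cluster on chromosome 3, with Gstm2 from 107981702 to 107986453 on the minus strand. Gstm1, the most abundant of the 4, measured 223, 201 and 207 FPKM in the Atf4WT libraries, and 201, 286 and 225 FPKM in the Atf4AKO libraries, so its groups overlapped. Gstm5 was 23.0 ± 4.70 and 31.3 ± 8.25 FPKM and Gstm4 2.81 ± 0.283 and 3.35 ± 1.13 FPKM. Of the 50-base words in Gstm1 transcripts 18.9% occur in another gene, mostly the pseudogene Gstm2-ps1 (14.1%), and of those in Gstm2 5.65%, mostly Gm12499 (3.33%), so how shared reads were assigned bears on both levels. Gstm4 and Gstm5 share 0 such words with any other gene.

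Gsto1 was the member with the tightest replicates. This omega-class enzyme, which reduces dehydroascorbate and protein thiols, had 134, 133.6 and 132 FPKM in Atf4WT libraries 1 to 3, compared with 114, 117 and 118 FPKM in Atf4AKO 1 to 3. The groups were 133.3 ± 0.872 and 117 ± 1.91 FPKM, so the gap was several times the SD of either group. The difference itself was small, 0.875 as a ratio of means and -0.19 as a log2 difference. Limma draws the variance of each gene toward that of genes of like level, which gave an SE of 0.09 and an adjusted p of 0.512. The log2 difference was between -0.34 and -0.17 over the alternatives and had the same sign in 18 of 18. Gsto1 lies on chromosome 19 from 47854970 to 47864790 (GRCm38, plus strand).

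Mgst1, a membrane-bound transferase that also reduces lipid peroxides, was the most abundant of the class, with 55.7% to 65.8% of its summed FPKM. It was 2093.5, 1855 and 2022 FPKM in the 3 Atf4WT libraries, beside 1478, 1964 and 1992 FPKM in the 3 Atf4AKO libraries. Only Atf4AKO 1 lay below the range of the others, and the log2 difference was -0.15 (SE 0.17, limma adjusted p = 0.719) with it and -0.0066 without it. Gstz1, which isomerises maleylacetoacetate in tyrosine breakdown, stood at 279, 326 and 342 FPKM across Atf4WT 1 to 3, and at 269, 415 and 340.3 FPKM across Atf4AKO 1 to 3, with overlapping groups.

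The groups of the remaining transferases overlapped. Gsta4, which conjugates the lipid aldehyde hydroxynonenal, had the largest positive log2 difference among them, with 20.6 ± 4.39 and 29.4 ± 6.90 FPKM and a log2 difference of 0.49 (SE 0.21, limma adjusted p = 0.501). Its groups overlapped, since Atf4WT 2 was at 25.5 FPKM and Atf4AKO 3 at 24.5 FPKM. Mgst3 was 168 ± 49.7 and 218 ± 50.7 FPKM, Mgst2 18.6 ± 5.24 and 18.9 ± 5.77 FPKM, and Gstk1, found in mitochondria and peroxisomes, 48.4 ± 10.9 and 58.0 ± 17.6 FPKM. Gstp1 was 59.1 ± 9.33 and 66.2 ± 5.23 FPKM, with 33.7% of its 50-base words also in Gstp2.

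**Figure D3:**
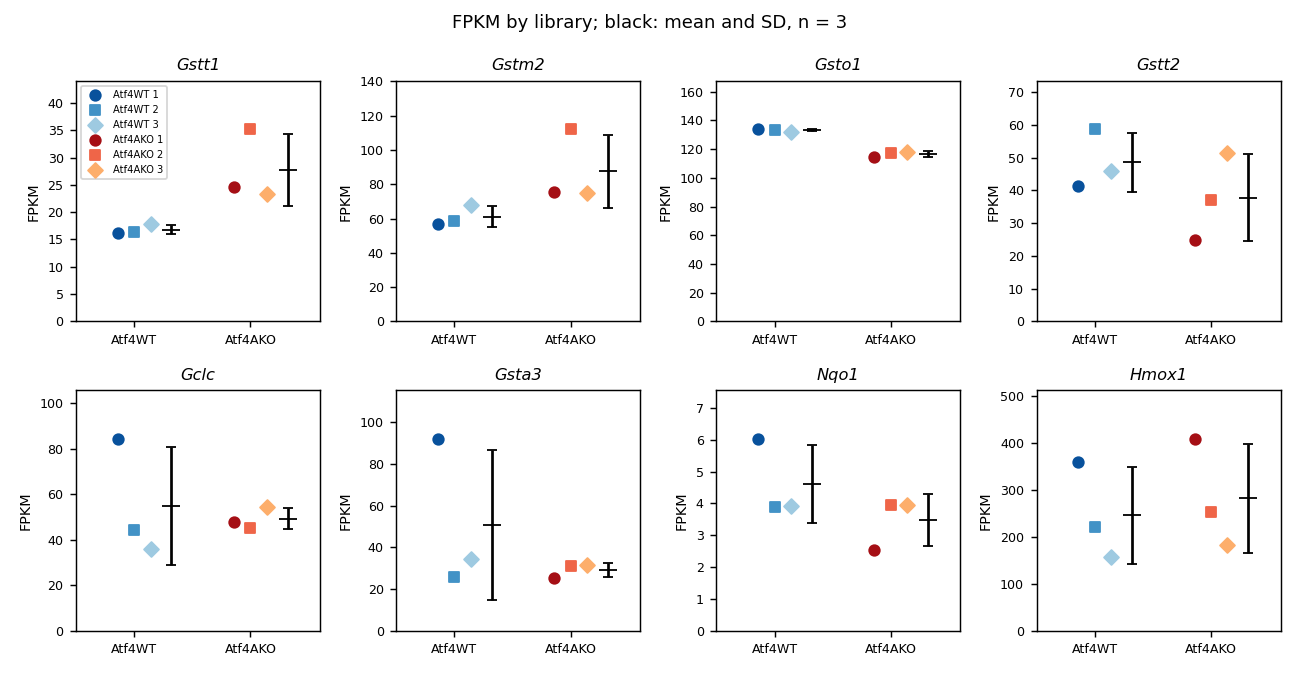
FPKM of 8 members by library, with the mean and SD of each group (n = 3) in black. Gstt1, Gstm2 and Gsto1 are the members whose groups do not overlap, and Gclc, Gsta3 and Nqo1 show Atf4WT 1 above all other libraries. The 5 genes other than those 3 were chosen after their values were seen.

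In Gsta3 and Nqo1, as in Gclc, Atf4WT 1 was well above the other 5 libraries. These genes were picked after their values were seen, and all are known NRF2 targets. Relative to the mean of the libraries on the log2 scale, the group of NRF2, KEAP1 and stress enzymes, which holds Nqo1, was at 0.23 in Atf4WT 1, its highest library. The mean level of 26 other NRF2 partners and targets was -0.11 in Atf4WT 1 and -0.18 in Atf4WT 3. These levels were not rescaled, and Atf4WT 1 had the smallest sum of FPKM. The part of NRF2 in these values was not tested. Gsta3, an alpha-class transferase, was 92.2 FPKM in Atf4WT 1, against 25.8 and 34.6 FPKM in the other Atf4WT libraries and a range of 25.4 to 31.6 FPKM in Atf4AKO. Its log2 difference of -0.56 (SE 0.44, limma adjusted p = 0.606) was -0.03 without Atf4WT 1. Nqo1, a quinone reductase, was 6.04 FPKM in Atf4WT 1, against 3.88 and 3.91 FPKM in the other Atf4WT libraries, while Atf4AKO 1 to 3 stood at 2.53, 3.96 and 3.94 FPKM. Gclc, Gclm and Gsr were also highest in Atf4WT 1, as were Gsto1 and Mgst1, 7 members in all (16.7%, against 19.4% of all tested genes). Atf4WT 1 was the lowest of the 6 for 17 members (40.5%, against 23.2% of all tested genes). They include Gpx3, Gpx4, all 3 superoxide dismutases, Txn2, Txnrd2 and Mgst3.

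Atf4WT 1 had the highest epithelial marker level, 2.92 above the mean of the 6 libraries on the log2 scale, and the lowest adipocyte marker level, -0.52. With the epithelial level as a covariate the log2 difference was 0.24 for Gclc and -0.24 for Gsta3, against -0.06 and -0.56 without it. The part of epithelial cells in the high values of this library was not tested. Atf4AKO 2 was the highest library for 17 of 42 members (40.5%), where it was the highest for 21.3% of all tested genes. It had the largest sum of FPKM (717778) and Atf4WT 1 the smallest (524158). With all libraries rescaled to equal sums, Atf4AKO 2 was the highest for 8 members and 7.65% of all tested genes, and Atf4WT 1 the highest for 15 members and 43.0% of all tested genes. Which library was most often the highest thus depends on the scale, for the members and for all genes alike. After this rescaling Atf4WT 1 was the lowest for 10 of 42 members and 8.85% of all tested genes.

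**Figure D4:**
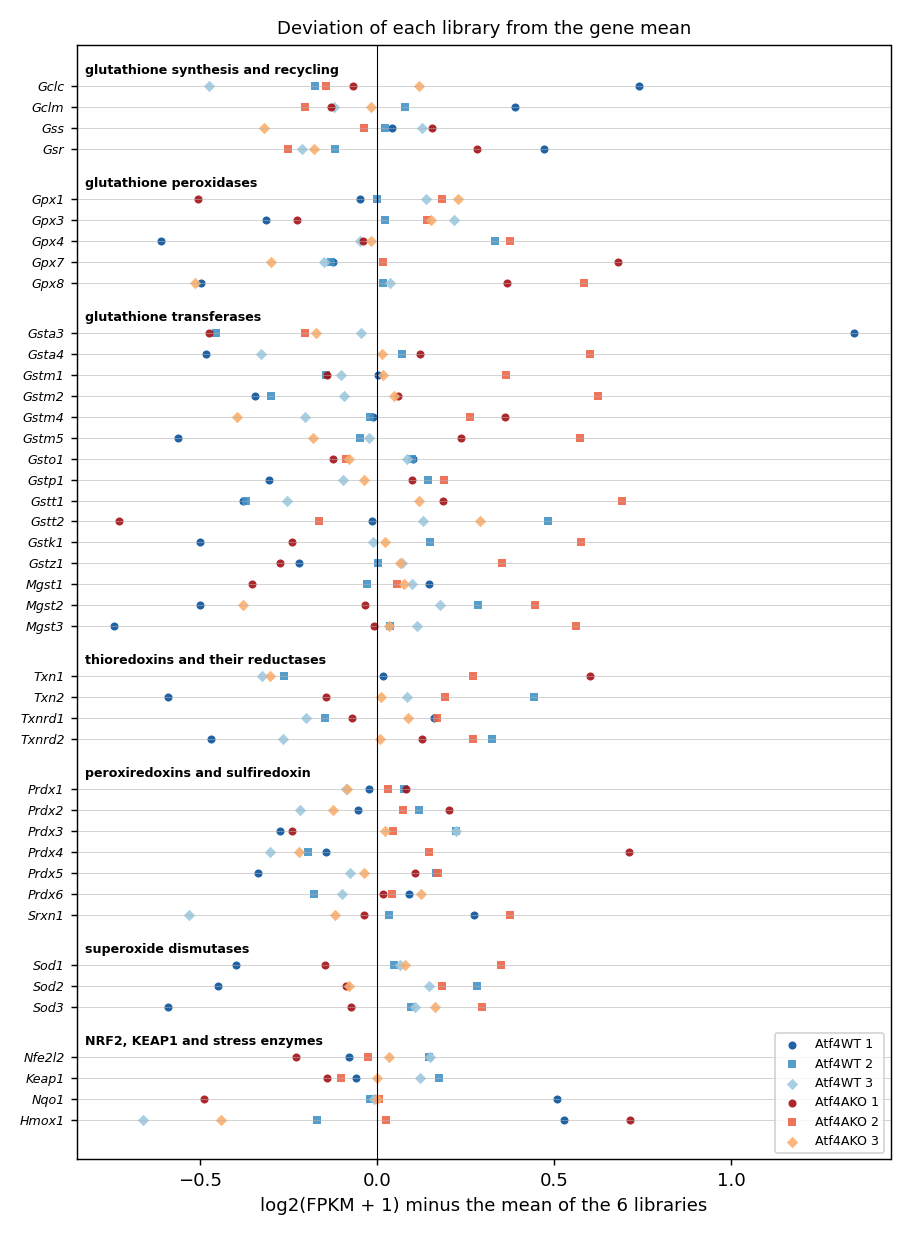
log2(FPKM + 1) of each library minus the mean of the 6 libraries, for each of the 42 genes ordered by role. Atf4WT 1 (dark blue circles) lies far right for Gclc, Gclm, Gsr, Gsta3 and Nqo1 and far left for the superoxide dismutases, and Atf4AKO 1 (dark red circles) lies far right for Gpx7, Txn1, Prdx4 and Hmox1.

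Antioxidant response element cores were searched in the promoters of the members, because NRF2 acts through them. RefSeq promoters (GRCm38.p6, from 250 bases before to 50 after the start) were on hand for 35 of 42 members, and not for Gclc, Gsr, Gsta4, Gstt2, Hmox1, Prdx6 and Sod3. The core TGACNNNGC, on either strand, was found in 9 of these 35 genes (25.71%), against 13.99% of all 27025 genes with a promoter, where some genes have several. The 9 were Gclm, Gsta3, Gstm5, Mgst1, Nfe2l2, Prdx1, Sod1, Srxn1 and Txnrd1. The core TGATGNAA of C/EBP-ATF response elements was found in 0 of 35, against 4.511% of all genes. A match is a run of letters and not a shown binding site, and elements outside this window were not searched. The stretches around 4 matches are given 5′ to 3′ on the strand of the gene, the core in capitals. Gclm and Gsta3 are shown as genes high in Atf4WT 1, Prdx1 as a gene with similar FPKM in all libraries, and Nfe2l2 as the gene of NRF2 itself. Of the genes with a match that are not shown, Mgst1 was highest in Atf4WT 1, and Gstm5 and Sod1 were lowest in it. Srxn1 and Txnrd1 were highest in Atf4AKO 2. Nqo1, also high in Atf4WT 1, had a promoter on hand without this core. The part of these matches in the FPKM values was not tested.
Gclm (chr3:122245383-122245471, plus strand): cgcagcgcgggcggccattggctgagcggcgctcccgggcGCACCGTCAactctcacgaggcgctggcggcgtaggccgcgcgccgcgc
Gsta3 (chr1:21240424-21240512, plus strand): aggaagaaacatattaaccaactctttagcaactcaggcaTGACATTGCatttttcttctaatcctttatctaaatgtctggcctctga
Prdx1 (chr4:116685426-116685514, plus strand): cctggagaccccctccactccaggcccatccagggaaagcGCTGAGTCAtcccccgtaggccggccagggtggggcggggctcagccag
Nfe2l2 (chr2:75704855-75704913, minus strand): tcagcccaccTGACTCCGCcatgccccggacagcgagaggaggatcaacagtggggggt
In Gsta3 and Nfe2l2 the core reads on the strand of the gene, and in Gclm and Prdx1 on the opposite strand.

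In FPKM as deposited, the genes of NRF2 and its inhibitor varied little across the 6 libraries. Nfe2l2 measured 31.2, 36.7 and 36.7 FPKM in the Atf4WT libraries, and 28.0, 32.4 and 33.9 FPKM in the Atf4AKO libraries, with a log2 difference of -0.15 (SE 0.12, limma adjusted p = 0.624). Keap1 was 14.7 ± 1.31 and 13.0 ± 0.704 FPKM, with a log2 difference of -0.16. With the libraries rescaled to equal sums, the log2 difference was -0.29 for Nfe2l2 and -0.30 for Keap1 (limma adjusted p = 0.485 for each). The median of all genes was then -0.12. The ratio of Nfe2l2 to Keap1 was between 2.25 and 2.53 in all 6 libraries, and NRF2 is controlled mainly at the protein level, which these data do not measure. In Atf4WT 1, where Gsta3 and Gclc were highest, the FPKM of Nfe2l2 was the lowest within Atf4WT. These FPKM were not rescaled, and Atf4WT 1 had the smallest sum of FPKM (524158). The part of NRF2 in the Gsta3 and Gclc values was not tested.

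Hmox1, the heme-degrading enzyme, varied widely within each genotype, with 360.3, 222 and 157 FPKM across Atf4WT 1 to 3, compared with 410.2, 254 and 184 FPKM across Atf4AKO 1 to 3. Its 2 highest libraries were Atf4AKO 1 and Atf4WT 1, and the groups overlapped almost fully, with a log2 difference of 0.20 (SE 0.39, limma adjusted p = 0.829). Atf4AKO 1 also had the highest macrophage marker level, 1.98 above the mean on the log2 scale, and macrophages are a main site of heme breakdown. It was the highest library for fibroblast (1.05) and erythroid markers (0.72) too. The macrophage level was -0.04 in Atf4WT 1, the second highest library for Hmox1, and 0.43 in Atf4AKO 2. With the macrophage level as a covariate the log2 difference of Hmox1 was -0.57 (limma adjusted p = 0.817). The part of any of these cell types in the Hmox1 values was not tested.

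Thioredoxins and their reductases had 4 of 4 log2 differences above 0, with a median of 0.20, and none passed. Txn1, the cytosolic thioredoxin, had 126, 104 and 99.4 FPKM in Atf4WT libraries 1 to 3, compared with 189.7, 150.5 and 101 FPKM in Atf4AKO 1 to 3. Atf4AKO 1 and 2 lay above every Atf4WT library, but Atf4AKO 3 lay within the Atf4WT range. Its log2 difference was 0.38 (SE 0.24, limma adjusted p = 0.559), and with the macrophage level as a covariate it was -0.08.

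Txn2, the mitochondrial thioredoxin, was 114, 234 and 183 FPKM in the 3 Atf4WT libraries, beside 156, 197 and 174 FPKM in the 3 Atf4AKO libraries, so that the whole Atf4AKO range lay inside that of Atf4WT. The cytosolic reductase Txnrd1 was 50.9 ± 7.25 and 55.3 ± 4.71 FPKM, and the mitochondrial reductase Txnrd2 was 8.42 ± 2.81 and 10.1 ± 1.02 FPKM.

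Peroxiredoxins and sulfiredoxin had the smallest within-group SD of their mean level among the 7 groups, 0.101 on the log2 scale. Prdx1, the main cytosolic form, held 43.2% to 47.0% of the summed FPKM of the 6 peroxiredoxin genes in every library. It stood at 518, 554 and 495 FPKM across Atf4WT 1 to 3, and at 556, 537 and 495 FPKM across Atf4AKO 1 to 3. The ranges were almost the same, and the log2 difference was 0.02 with a 95% interval from -0.27 to 0.31 (SE 0.12, limma adjusted p = 0.949).

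Prdx5, found in mitochondria, peroxisomes and cytosol, measured 178, 252 and 213 FPKM in the Atf4WT libraries, and 242, 253 and 219 FPKM in the Atf4AKO libraries, with overlapping groups. Prdx2 was 112 ± 13.1 and 120.3 ± 13.6 FPKM, Prdx6 was 145 ± 14.2 and 158 ± 6.28 FPKM, and the mitochondrial Prdx3 was 149 ± 27.8 and 136 ± 14.6 FPKM. Srxn1, the sulfiredoxin that repairs over-oxidised peroxiredoxins, was 53.1 ± 14.5 and 58.0 ± 11.3 FPKM. Among the peroxiredoxins, Prdx4, the form of the endoplasmic reticulum, was the exception in spread.

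Prdx4 had 17.9, 17.2 and 15.9 FPKM in Atf4WT libraries 1 to 3, compared with 33.1, 22.1 and 16.9 FPKM in Atf4AKO 1 to 3. Atf4AKO 1 stood apart, Atf4AKO 2 lay above the Atf4WT range and Atf4AKO 3 inside it, with a log2 difference of 0.43 (SE 0.23, limma adjusted p = 0.529). Gpx7, a peroxidase of the same compartment, had this order too, at 16.0, 9.74 and 7.64 FPKM in Atf4AKO 1 to 3, whereas Gpx8, the other one, did not, at 70.8, 82.5 and 38.0 FPKM. The macrophage and the fibroblast marker levels follow the order too, at 1.98, 0.43 and -0.42 and at 1.05, 0.30 and -0.24 in Atf4AKO 1 to 3. So does the erythroid marker level, at 0.72, 0.20 and -0.26. With the macrophage level as a covariate the log2 difference was -0.02 for Prdx4 and -0.18 for Gpx7. The part of any of these cell types in Prdx4 and Gpx7 was not tested.

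Superoxide dismutases did not differ detectably between genotypes. Sod1, the cytosolic copper-zinc enzyme, held 91.0% to 92.4% of the summed FPKM of the 3 genes. It was 1347, 1834 and 1856 FPKM in the 3 Atf4WT libraries, beside 1602, 2259 and 1875 FPKM in the 3 Atf4AKO libraries. Atf4WT 1 was the lowest and Atf4AKO 2 the highest library, and the log2 difference was 0.19 (SE 0.21, limma adjusted p = 0.700). Sod3, the extracellular enzyme, stood at 70.8, 114.7 and 115 FPKM across Atf4WT 1 to 3, and at 102, 132 and 120.2 FPKM across Atf4AKO 1 to 3, with Atf4WT 1 again lowest. Sod2, the mitochondrial manganese enzyme, was 55.3 ± 13.98 and 54.7 ± 6.12 FPKM, with 21.0% of its 50-base words also in other genes. The median log2 difference of the 3 genes was 0.19, and 0.027 without Atf4WT 1.

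**Figure D5:**
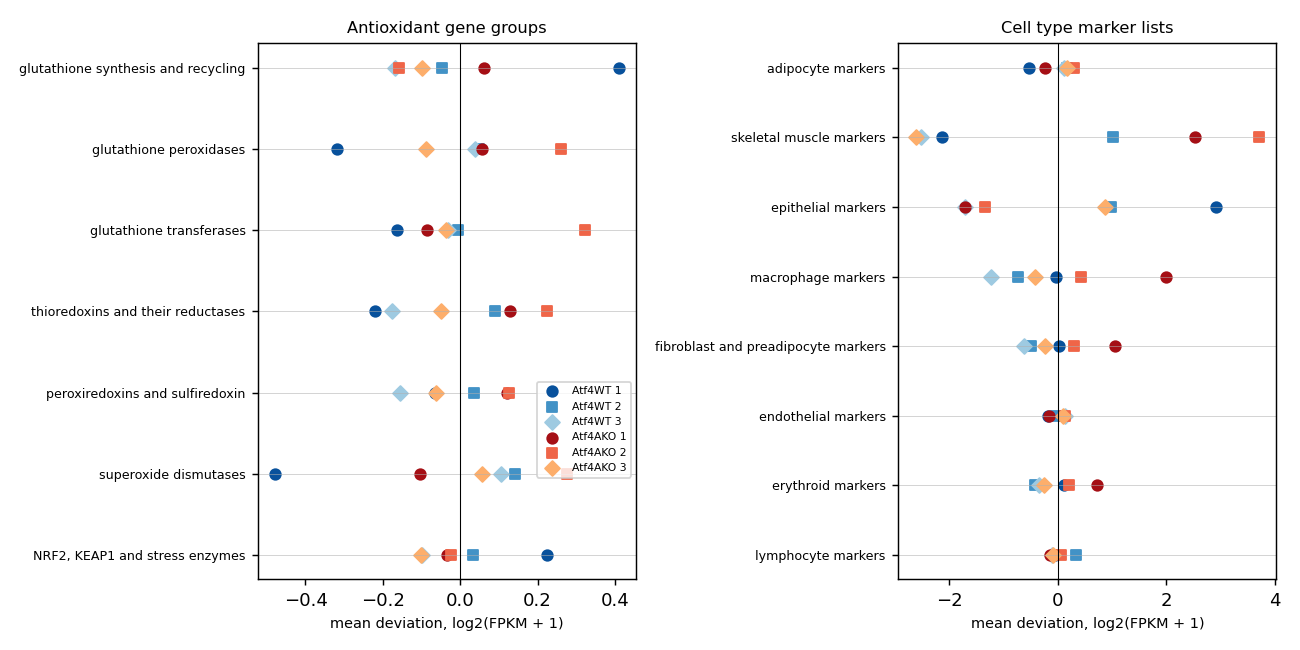
Level of each antioxidant gene group (left) and of each cell type marker list (right) in the 6 libraries, as the mean over genes of log2(FPKM + 1) minus the gene's mean over libraries. Antioxidant groups stay within 0.5 of 0, and for peroxidases, transferases, thioredoxins and superoxide dismutases the lowest library is Atf4WT 1 and the highest Atf4AKO 2. Muscle, epithelial and macrophage lists spread over several log2 units.

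The median within-group SD of log2(FPKM + 1) was 0.30 for the 42 members, against 0.21 over all tested genes and 0.20 over the 3445 genes averaging 20 FPKM or more. The width of the intervals given above rests on this spread after limma drew the variance of each gene toward that of genes of like level.

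Other genes of the same pathways, taken from 3 lists of 89 symbols, also gave no calls. Of 78 that were tested 0 passed over all genes by limma, 45 log2 differences were positive and 33 negative, and the median was 0.034. With the libraries rescaled to equal sums 30 were positive and 48 negative. At an unadjusted limma p under 0.05 there were 7 of the 78 higher and 3 lower, against 5.04% of all tested genes higher and 4.91% lower. In 15 of the 78 the groups did not overlap (19.2%, against 16.5% of all tested genes). Cystine import through Slc7a11 was below the filter, at 0.242 ± 0.0242 and 0.729 ± 0.451 FPKM. Chac1, the glutathione-degrading enzyme induced through ATF4 in stressed cells, measured 94.2, 137.5 and 104 FPKM in the Atf4WT libraries, and 113, 173 and 165 FPKM in the Atf4AKO libraries, so its groups overlapped, with the higher mean in Atf4AKO (log2 difference 0.41, SE 0.22, limma adjusted p = 0.525). Chac2, its relative, was 1.99 ± 0.447 and 1.37 ± 0.531 FPKM.

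Smallest in p among the other glutathione genes were Cndp2, a dipeptidase that splits cysteinylglycine, at 28.8 ± 1.78 and 53.2 ± 20.5 FPKM, and Slc25a40, a mitochondrial glutathione carrier, at 2.24 ± 0.0220 and 1.59 ± 0.231 FPKM. Cndp2 was highest in Atf4AKO 1, the library highest in macrophage, fibroblast and erythroid markers, at 75.8 FPKM. Among thioredoxin and peroxide genes it was Sephs2, which makes the selenium donor for selenoproteins. It had 129, 130.3 and 111.0 FPKM in Atf4WT libraries 1 to 3, compared with 59.8, 56.7 and 96.8 FPKM in Atf4AKO 1 to 3, with groups that did not overlap (log2 difference -0.83, SE 0.22, limma adjusted p = 0.50). Txnip, the inhibitor of thioredoxin, was 1381, 1315 and 1291 FPKM in the 3 Atf4WT libraries, beside 1705, 2443 and 1666 FPKM in the 3 Atf4AKO libraries, again with no overlap (log2 difference 0.52, SE 0.19, limma adjusted p = 0.50). Msrb3 was 11.03 ± 0.508 and 14.2 ± 2.98 FPKM and Sesn2, a stress-induced sestrin, 43.7 ± 7.91 and 80.0 ± 27.0 FPKM. Cat, the peroxisomal catalase, was among the most abundant of these genes and overlapped between groups, at 1653 ± 154 and 1497 ± 193 FPKM.

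NRF2 partners and targets outside the members were more often higher than lower in Atf4AKO, though 0 of 25 tested passed over all genes by limma. At an unadjusted limma p under 0.05 there were 4 higher and 1 lower, against 5.04% of all tested genes higher and 4.91% lower. Of the 25 log2 differences 18 were positive and 7 negative, with a median of 0.25. With libraries rescaled to equal sums these were 16 and 9, with a median of 0.096. Groups did not overlap in 7 genes higher and 1 lower (32% of 25, against 16.5% of all tested genes). The mean level of the list was 0.20, 0.12 and -0.021 in Atf4AKO 1 to 3, the order of the macrophage, fibroblast and erythroid marker levels alike. The median log2 difference was 0.12 with the macrophage level as a covariate and 0.13 without Atf4AKO 1. The part of any of these cell types in these values was not tested. The 1 lower gene was Cbr1, a carbonyl reductase. It stood at 64.1, 57.5 and 71.1 FPKM across Atf4WT 1 to 3, and at 36.9, 38.8 and 48.3 FPKM across Atf4AKO 1 to 3, with groups that did not overlap (log2 difference -0.63, SE 0.15, limma adjusted p = 0.50). Ugdh, which makes UDP-glucuronate, measured 473, 598 and 745 FPKM in the Atf4WT libraries, and 918, 1765 and 1081 FPKM in the Atf4AKO libraries, also with no overlap (log2 difference 1.02, SE 0.29, limma adjusted p = 0.50). Tkt, an enzyme of the pentose phosphate pathway that supplies NADPH, was 139.7 ± 50.4 and 221 ± 20.9 FPKM, and Cul3, the ubiquitin ligase scaffold that works with KEAP1, 52.4 ± 1.34 and 65.3 ± 7.34 FPKM. None of these passed over all genes.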

How the data were processed

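Poly(A) libraries of iWAT from 3 Atf4WT and 3 Atf4AKO mice or pools were compared. The authors deposited FPKM (fragments per kilobase of transcript, scaled to the mapped fragments of the library), with a single row per symbol, on the build mm10 per the submitters' processing notes. For the aligner, quantifier, annotation and use of strand, the sources used here name none. FPKM sums ran from 524158 to 717778, and 15939 to 16504 genes were above 0 in a library. The depth in reads is unknown, and counting intervals and detection limits cannot be had.

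Values were analysed as log2(FPKM + 1), for the 12818 genes averaging 0.5 FPKM or more. The fit used limma 3.58.1 (lmFit, eBayes with trend, no covariate; R 4.3.3), with Benjamini-Hochberg adjustment over all tested genes at 0.05, and the procedure was tested on simulated data. A log2 difference is Atf4AKO minus Atf4WT, and is compressed by the added 1 where FPKM is low. The level of a list is the mean over its genes of log2(FPKM + 1) minus the gene's mean over libraries. Words of 50 bases were compared over GENCODE M21 transcripts, and coordinates are from that annotation. In the 3 pathway and the marker lists 4 symbols were found through RefSeq synonyms, and Ahsp had no row.

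Members and lists were chosen with earlier results of these data known. Named in every library are members with an unadjusted p under 0.05 or groups that do not overlap, and the 2 most abundant of each role. Of the other lists up to 4 of smallest p are named, besides Atf4, Cat, Chac1, Slc7a11 and Txnip. Gclm, Gsta3, Gsta4, Gstm1, Gstt2, Nqo1, Prdx4 and Gpx7, and library values of Sephs2, Cbr1 and Ugdh, were given in more detail after their values were seen.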

Additional observations from a re-analysis of the deposited data

How the results depend on the processing

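No member was called in either direction under any of 18 alternatives: pseudocounts of 0.1 and 0.5, other filters, 2 rescalings, no trend, the replicate block, 3 marker covariates, each library left out, and Atf4AKO 1, Atf4AKO 2 and Atf4WT 2 left out together. The smallest adjusted p of a member was 0.136 by limma, for Gstt1 without Atf4AKO 3. Without that library 41.3% of all tested genes had groups that did not overlap, against 16.5% with all libraries. Rescaling to equal sums moved the median of all genes from 0.0046 to -0.12, and with it the count of members above 0 from 29 to 19. The median of peroxiredoxins and sulfiredoxin was then -0.026 and that of NRF2, KEAP1 and stress enzymes -0.30, and relative to the median of all genes both kept the sign they had before. The peroxiredoxin median was -0.0011 with the muscle covariate, -0.017 with the macrophage covariate and 0.011 without Atf4AKO 1, Atf4AKO 2 and Atf4WT 2, where Atf4AKO 3 alone is assumed to vary like Atf4WT. The cause was not tested. With each library left out the median ran from 0.018 to 0.19 for peroxiredoxins, from -0.035 to 0.28 for peroxidases, and from -0.27 to 0.011 for synthesis and recycling. In 13 of 42 members the sign of the log2 difference turned when 1 library was left out, among them Gclc, Gsr, Gpx1, Gpx3, Gpx4, Txn2, Prdx1, Sod2 and Hmox1.

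Leaving out a library was planned, but counting overlaps in what remained was added after the data were seen. The rescaled, covariate and left-out values of the other pathway lists were added then too. Leaving out a library cannot create an overlap, so the number of members whose groups did not overlap could only stay or grow from 3. It was 9 without Atf4WT 1, 10 without Atf4WT 2, 4 without Atf4WT 3, 8 without Atf4AKO 1, 3 without Atf4AKO 2 and 13 without Atf4AKO 3, while the share of all tested genes went from 16.5% to between 19.6% and 41.3%. With Atf4AKO 1, Atf4AKO 2 and Atf4WT 2 all left out the count was 21 and the share 57%. The titles do not say whether the replicate numbers pair the libraries, and the values do not settle it. Deviations of same-numbered libraries correlated at 0.08, 0.40 and 0.07 across genes. For numbers 2 and 3 of Atf4WT this was the highest correlation with any Atf4AKO library. Number 1 of Atf4WT correlated best with another number, at 0.19. With the replicate block 0 members and 0 genes were called, against 0 and 2 without it. Unknown depth limits Gstm4, Nqo1 and Gss most.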
